A study of Mus musculus with 7 samples.

Results

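The genes described here encode matrix proteins other than the main fibril-forming collagens, together with the proteases that cut them, the inhibitors of those proteases and the lysyl oxidases that cross-link them. They were taken by symbol from the Srsf3 peak lists: Col genes except Col1a, Col3a1, Col5a and Col11a1, laminins Lama to Lamc, Adam, Adamts and Adamts-like, Mmp, Thbs, Timp, Nid and Lox genes, and Hspg2, Sparc, Tnc and Vcan. The symbols found 271 of 14780 peaks, in 50 of 5367 bound genes. The PDGF-AA list held 144 of them among 8384 peaks, and the untreated list 127 among 6396. Col11a2 and Col27a1 met the rule on symbols although both belong to the fibrillar collagen family, and the Adamts-like members lack the protease domain of Adamts enzymes.

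The peaks came from enhanced UV-crosslinking and immunoprecipitation (eCLIP) of Srsf3 in iMEPM cells, a palatal mesenchyme line derived from a Cdkn2a-/- mouse embryo. Serum-starved cells received PDGF-AA at 10 ng/mL during 1 hr (1 Srsf3 library among the samples used here) or were left untreated (2 Srsf3 libraries), all from the same line and with the same antibody. The caller was run once on each condition, which gave 1 list of intervals per condition, with no score or read count. No difference between the lists therefore has a replicate check or a test, and the condition cannot be told apart from the library. The study's table of eCLIP reads also lists 2 untreated replicates and 1 PDGF-AA library, besides the inputs. Percentages carry 95% Wilson intervals and copies per kb carry 95% Poisson intervals, and both cover counting error only.

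Srsf3 is a small serine/arginine-rich protein that binds RNA and takes part in splicing and in the export of mRNA. PDGF-AA is a ligand of PDGFRα, a receptor tyrosine kinase of mesenchymal cells. Basement membranes are built from laminin and type IV collagen networks joined by nidogen and perlecan, whereas type VI collagen forms beaded microfilaments in the surrounding matrix. Collagen chains wind into a triple helix, which needs glycine at the first place of each triplet of residues, written Gly-X-Y. Many collagen exons are short and encode whole triplets of that repeat.

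The sequences under the peaks fell into a few kinds, of which 9 examples follow, all on the transcript strand from 5′ to 3′ in build GRCm39 and with the positions of the deposited intervals. The first 4 are exons of type VI collagen genes that a peak covered from end to end in both lists, with glycine codons in capitals. Deposited intervals sit 1 nt after the annotated exon edge in genome coordinates, so on this strand the first base printed belongs to the preceding intron.
Col6a2 exon 8, chr10:76447627-76447671: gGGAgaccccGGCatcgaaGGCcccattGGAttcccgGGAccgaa
Col6a2 exon 9, chr10:76447251-76447277: gGGTgtgcctGGCttcaagGGAgagaa
Col6a2 exon 10, chr10:76446998-76447024: gGGTgaatttGGAtcggatGGTcggaa
Col6a3 exon 22, chr1:90720133-90720198: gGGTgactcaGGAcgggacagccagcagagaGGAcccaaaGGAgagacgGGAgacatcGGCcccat

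Tandem CA runs in introns marked another kind of peak. The longest run among the peaks was in an untreated peak of Loxl3, and the runs of Col4a2 and Col8a1 are the pair that the PDGF-AA list also held. Capitals mark the longest perfect CA run.
Loxl3 intron, untreated, chr6:83019789-83019865: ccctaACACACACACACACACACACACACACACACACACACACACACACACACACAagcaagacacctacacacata
Col4a2 intron, PDGF-AA, chr8:11411668-11411742: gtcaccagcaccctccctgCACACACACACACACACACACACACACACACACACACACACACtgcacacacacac
Col8a1 intron, PDGF-AA, chr16:57562907-57563008: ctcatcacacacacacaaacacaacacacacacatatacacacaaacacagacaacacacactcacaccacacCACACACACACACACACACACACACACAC

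The widest coding (CDS) peak of each list alone is shown with exonic bases in capitals. The Adamts6 peak lay inside exon 22, and the Mmp2 peak began in exon 2 and ran across its 5′ splice site into the intron.
Adamts6, PDGF-AA, chr13:104606924-104607012: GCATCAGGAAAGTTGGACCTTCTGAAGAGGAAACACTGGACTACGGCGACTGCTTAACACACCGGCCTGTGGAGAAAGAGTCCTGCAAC
Mmp2, untreated, chr8:93557434-93557506: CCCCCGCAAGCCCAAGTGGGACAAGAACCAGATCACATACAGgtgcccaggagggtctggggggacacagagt

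The first comparison asked how many peaks each gene had with and without ligand. Of the 50 genes, 24 had more PDGF-AA than untreated peaks (48.0%, 34.8 to 61.5), 15 had fewer (30.0%, 19.1 to 43.8) and 11 had equal numbers. Over all bound genes 50.6% had more and 26.7% had fewer, so these shares were near the background. The median difference per gene was 0 peaks among the matrix genes and 1 over all bound genes. Peaks in both lists were found for 36 of the 50 genes (72%, 58.3 to 82.5), against 50.4% of all bound genes. These shares were not matched for peaks per gene, and the matrix genes held 271 peaks in 50 genes, against 14780 in 5367. A gene with more peaks can more easily be in both lists, and its part in this difference was not tested. Adam9, Adamts12, Adamts14, Col7a1, Col11a2, Lama5, Mmp11 and Thbs2 (8 genes) had peaks in the PDGF-AA list only, and Adam19, Adam33, Col4a5, Col6a6, Col18a1 and Loxl2 (6 genes) in the untreated list only. Of all 5367 bound genes, 4490 had a PDGF-AA peak and 3584 an untreated peak, against 44 and 42 of the 50 matrix genes. Genes in a single list were thus less common here than over all bound genes, again without matching for peaks per gene. The PDGF-AA list held 1.13 times as many peaks of these genes as the untreated list, against 1.31 times over all peaks. Covered sequence differed in the same direction, at 7713 nt in the PDGF-AA list, against 6441 nt in the untreated list. Peaks of at least 40 nt numbered 103 with PDGF-AA and 84 without ligand.

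**Figure D1:**
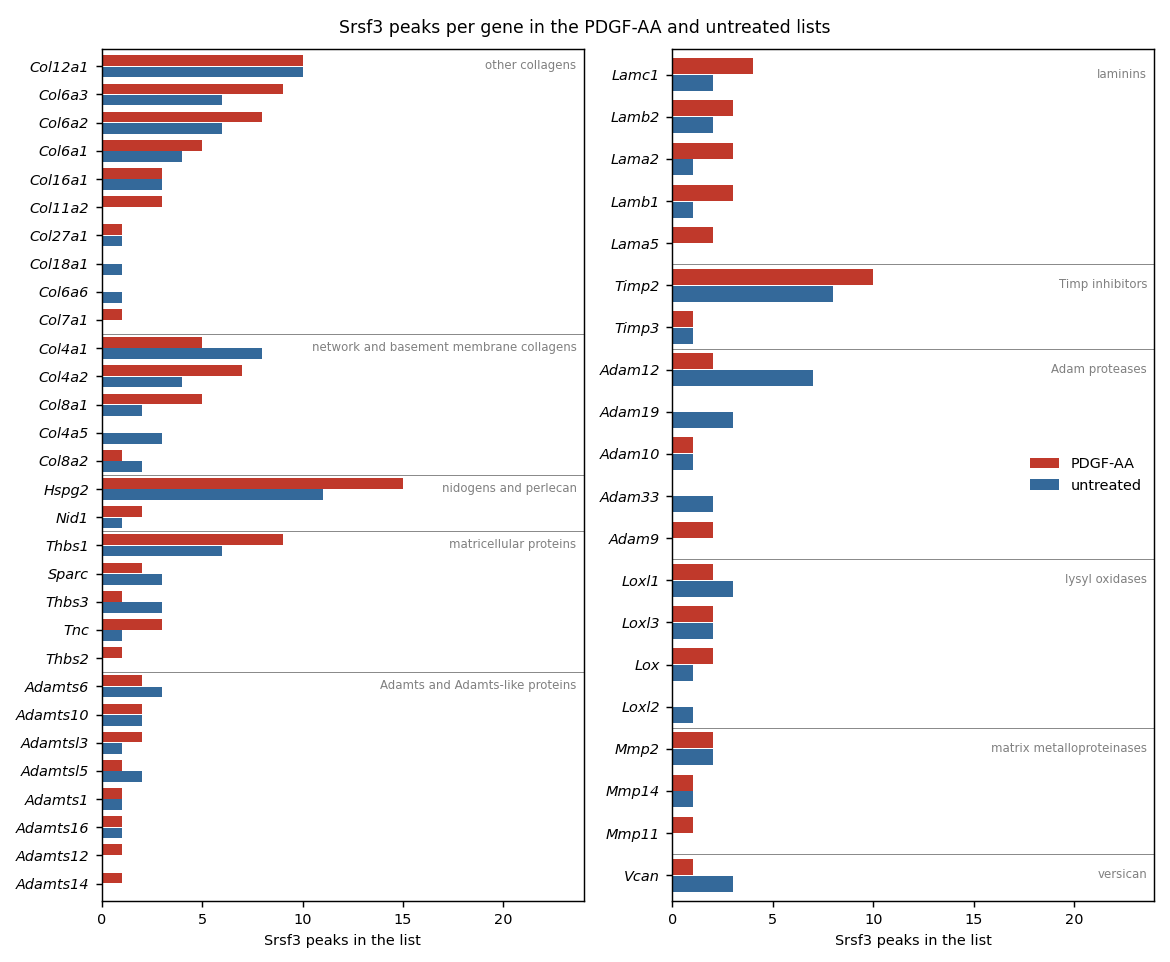
Number of Srsf3 peaks (x axis) in each of the 50 genes (y axis), grouped by role, in the PDGF-AA list (red) and the untreated list (blue); bars are counts from 1 list per condition and have no error bars. Hspg2 had the most peaks in both lists (15 and 11). All 5 laminin genes had more in the PDGF-AA list, as did 50.6% of all bound genes. Adam12 had 2 in the PDGF-AA list against 7 in the untreated list.

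Laminins, the cross-shaped trimers of the basement membrane, had 15 peaks in the PDGF-AA list, against 6 in the untreated list. Each of the 5 bound laminin genes had more in the PDGF-AA list, on 4 peaks or fewer per list. Over all bound genes 50.6% had more, and the PDGF-AA list held 1.31 times as many peaks over all genes. Among peaks of at least 40 nt the differences of Lama2 and Lamb2 were 0. Lamc1, the chain shared by most laminin trimers, had 4 peaks in the PDGF-AA list, against 2 in the untreated list. Its PDGF-AA peaks lay in exons 23, 25, 26 and 28, near the 3′ end of the coding sequence, and the only site in both lists was at the 3′ end of exon 23, where it covered 98 nt in the PDGF-AA list, against 27 nt in the untreated list. Lamb1 and Lama2 had 3 peaks each in the PDGF-AA list, against 1 each in the untreated list, and none of these overlapped. In both genes a pair of PDGF-AA intervals was 1 nt apart in the same exon, so that merging intervals within 50 nt left 2 sites per gene. Lamb2 had 3 and 2 peaks, with exon 31 in both lists. Lama5 had 2 PDGF-AA peaks, in exons 4 and 62, and no untreated peak. Coding sequence held 14 of the 15 PDGF-AA laminin peaks and 4 of the 6 untreated peaks, against 81.6% and 54.4% of all placed peaks.

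Hspg2, which encodes perlecan, the large heparan sulfate proteoglycan of basement membranes, had the most peaks of any of these genes, 15 with PDGF-AA against 11 without ligand. This was 1.14 and 0.761 coding peaks per kb of its coding sequence of 13149 nt. Sites in exons 3, 59, 69, 95 and 96 were in both lists. At exons 95 and 96 both lists had a peak that ended at the end of one exon and another that began at the start of the next. The PDGF-AA list alone had such pairs at exons 35 and 36, 68 and 69, and 69 and 70. Of the coding Hspg2 peaks, 13 of 15 with PDGF-AA and 4 of 10 without ligand had an edge at an exon end. Over all coding peaks of internal exons these shares were 35.5% and 38.7%. Nid1, which encodes the linker protein nidogen, had 2 peaks in the PDGF-AA list, against 1 in the untreated list, in different exons.

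The type IV collagen genes Col4a1 and Col4a2 lie head to head on chromosome 8 and encode the chains of the common basement membrane trimer. Col4a1 had 5 peaks in the PDGF-AA list, all coding, against 8 in the untreated list, of which 4 were coding and 4 intronic. The coding sites in exons 3, 15 and 28 were in both lists. Col4a2 had 7 peaks in the PDGF-AA list, of which 5 were coding, against 4 in the untreated list, of which 2 were coding. Exon 13 and the CA run shown above were in both. The opposite signs of the peak differences, -3 for Col4a1 and 3 for Col4a2, came with 4 intronic peaks of Col4a1 in the untreated list alone. Col4a5, a chain of more specialised basement membranes, had no PDGF-AA peak and 3 untreated intronic peaks.

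The short network collagens were bound mainly outside coding sequence. All 5 PDGF-AA peaks and both untreated peaks of Col8a1 lay in introns. The widest untreated peak of all the genes, 153 nt, was in Col8a1 and enclosed a PDGF-AA peak of 102 nt. Col8a2 had 1 PDGF-AA peak, in the 3′ UTR, and 2 untreated peaks, in the 5′ UTR and an intron.

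The type VI collagen genes, which encode the 3 chains of one heterotrimer, differed in the density and the overlap of their coding peaks. Col6a2 had 8 peaks in the PDGF-AA list, against 6 in the untreated list, all coding, or 2.58 and 1.93 peaks per kb of coding sequence. All 6 untreated peaks overlapped a PDGF-AA peak, in exons 7, 8, 9, 10, 14 and 15. The run over exons 7 to 10 was unbroken in the mRNA apart from the start of exon 7 and encoded residues 288 to 333 of 1034 in the PDGF-AA list, and residues 285 to 333 in the untreated list. PDGF-AA peaks in exons 4 and 5 had no counterpart. The 21-nt exon 5 was covered from end to end. Every Col6a2 peak in both lists had an edge at an exon end.

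Col6a1 had 5 PDGF-AA and 4 untreated peaks, all coding, of which 3 overlapped in each list, in exons 13, 20 and 31, and its difference of 1 peak turned to -2 among peaks of at least 40 nt. Exon 13, of 45 nt, was covered at 97.8% in the PDGF-AA list, against 93.3% in the untreated list, whereas exon 20, of 63 nt, was covered at 55.6% and 98.4%. Col6a3 had 9 PDGF-AA and 6 untreated peaks, or 0.812 and 0.609 coding peaks per kb of coding sequence. Peaks overlapped in exons 22, 23 and 28, and the interval over exon 22 was identical in the lists. Exon 7, a long exon upstream of the triple helix, had 2 PDGF-AA peaks and 1 untreated peak, which did not overlap, and exons 5 and 9 had a peak in the PDGF-AA list alone. Col6a3 had 1 further PDGF-AA peak in its 5′ UTR. Across all of the genes 6 intervals were identical in the lists.

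Col12a1, a fibril-associated collagen, had 10 peaks in each list, of which 5 overlapped. Exons 14, 29, 54 and 58 were shared, as was an intronic peak of 142 nt in the PDGF-AA list, the widest there, against 61 nt without ligand. Only untreated peaks lay in exons 57 and 59, on either side of the shared exon 58, and all 3 exons encode Gly-X-Y repeats. Col16a1 had 3 peaks per list, all overlapping, in exons 4, 8 and 9, and the interval in exon 9 was identical. Col11a2 had 3 PDGF-AA peaks, in exons 60, 61 and 64, and no untreated peak. Equal peak numbers stood beside complete overlap in Col16a1 and partial overlap in Col12a1.

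**Figure D2:**
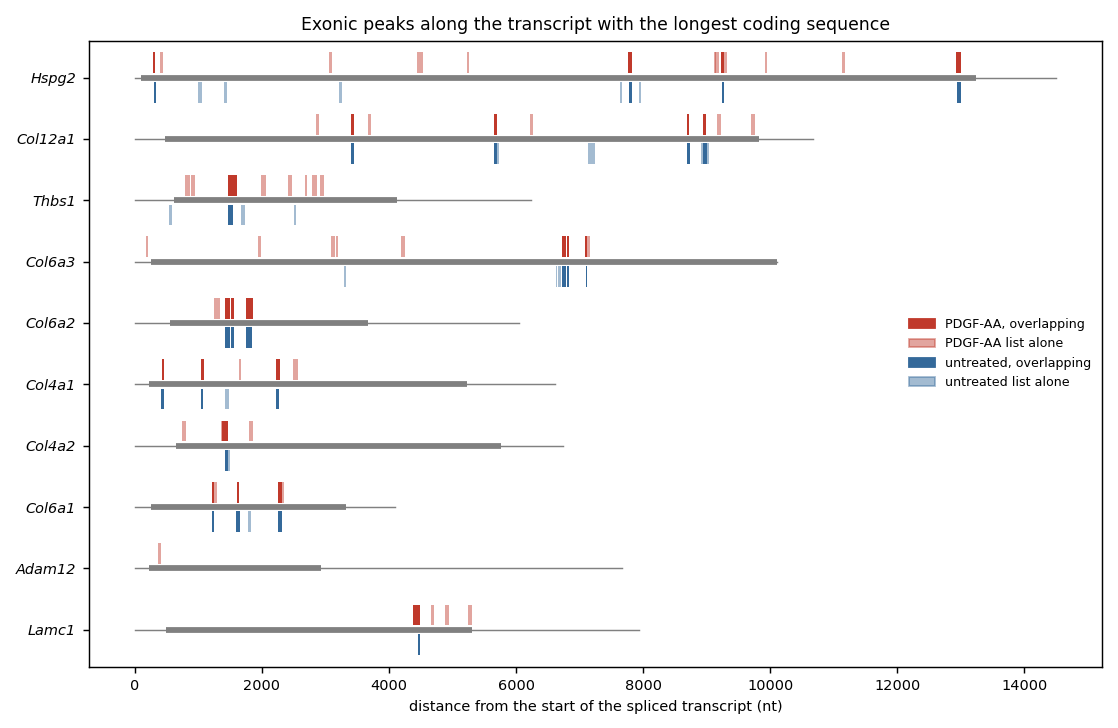
Exonic peaks of genes with many peaks, drawn by distance from the start of the spliced transcript with the longest coding sequence (x axis, nt), PDGF-AA above and untreated below each transcript line. The thick line is the coding sequence, dark bars overlap a peak of the other list, pale bars do not, intronic peaks are left out, and bars are drawn at least 25 nt wide. All 6 untreated Col6a2 peaks overlapped 6 of its 8 PDGF-AA peaks, and Hspg2 and Thbs1 had more bars above the line.

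Thrombospondins, Sparc and tenascin are matricellular proteins, which modulate how cells attach to the matrix. Thbs1 had 9 peaks in the PDGF-AA list, all coding, against 6 in the untreated list, of which 4 were coding, 1 lay in the 5′ UTR and 1 in an intron. This was 2.56 and 1.14 coding peaks per kb of coding sequence. The sites at the end of exon 5 and the start of exon 6 were in both lists. The PDGF-AA list alone had peaks in exons 3, 9, 13, 14 and 15. Both lists had a peak in exon 12, and these did not overlap. Thbs3 had 1 PDGF-AA peak against 3 untreated peaks, and the site in both lists was exon 16, of 53 nt.

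Sparc, a collagen-binding glycoprotein, had 2 PDGF-AA and 3 untreated peaks. Its exon 9 site was 59 nt in the PDGF-AA list, against 58 nt in the untreated list, differing by 1 nt at an edge. In both lists this site held 1 copy of each GA-rich hexamer, 3 in total: AGAAGA, the related GAAGAA, and its shifted form AAGAAG. Tnc, which encodes tenascin-C, had 3 PDGF-AA peaks and 1 untreated peak. The PDGF-AA list alone had Tnc peaks in exons 8 and 9. Vcan, which encodes the hyaluronan-binding proteoglycan versican, had 1 PDGF-AA and 3 untreated peaks. Each lay in exon 7 or 8, the long exons that encode the glycosaminoglycan attachment regions and that other annotated transcripts skip. Exon 7 was bound in both lists and exon 8 in the untreated list.

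Adam genes encode membrane-anchored proteases, and their peaks differed in place between the lists. The 5 bound genes had 5 peaks in the PDGF-AA list, of which 3 were coding, against 13 in the untreated list, of which 11 were intronic. None of these few Adam peaks overlapped a peak of the other list. Over all peaks 29.6% with PDGF-AA and 38.8% without ligand did, and over all intronic peaks 33.9% and 14.6% did. Adam12, which has a role in mesenchymal and muscle cells, had 2 PDGF-AA peaks, 1 in exon 2 and 1 in an intron, against 7 untreated peaks, all intronic and 5 of them with a CA run. Adjacent Adam12 intervals were 1 to 2 nt apart at 3 places, and merging within 50 nt left 2 PDGF-AA sites and 4 untreated sites. The Adam12 difference of -5 peaks was 0 among peaks of at least 40 nt, and 0 without the peaks that hold a CA run. Adam19 had 3 untreated intronic peaks, each with a CA run of 22 to 28 nt, and no PDGF-AA peak. Adam9 had 2 PDGF-AA peaks and no untreated peak.

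The secreted Adamts and Adamts-like proteins had 11 PDGF-AA and 10 untreated peaks over 8 genes. Coding sequence held 8 of the PDGF-AA peaks and 4 of the untreated peaks, against 81.6% and 54.4% of all placed peaks. Adamts10 had 2 peaks in each list at the junction of exons 6 and 7, where the peaks met the exon ends in both. Adamts6 had 2 coding peaks in the PDGF-AA list, against 3 intronic peaks in the untreated list. Adamts1, a protease that cuts versican, had 1 peak per list in exon 1, and these shared 31 nt. Matrix metalloproteinases had few peaks, 4 in the PDGF-AA list, against 3 in the untreated list. Mmp2, gelatinase A, had 2 peaks per list, of which the intronic one was shared and the exon 2 peaks lay apart. Mmp14, a membrane-anchored activator of Mmp2, had 1 peak per list, in the 5′ UTR with PDGF-AA and in the coding part of exon 1 without ligand.

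Lysyl oxidases, which cross-link collagen and elastin, had 6 PDGF-AA and 7 untreated peaks over 4 genes. Among these few peaks, 4 of 5 PDGF-AA and 4 of 5 untreated coding peaks overlapped, against 29.3% and 57.5% of all coding peaks. Lox had 2 PDGF-AA peaks and 1 untreated peak, with 72 nt in common in exon 3. Loxl1 had 2 PDGF-AA and 3 untreated peaks, with exons 3 and 4 in both lists, and its difference of -1 turned to 1 among peaks of at least 40 nt. Loxl3 had 2 peaks per list, with exon 11 in both.

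Timp2 encodes an inhibitor of metalloproteinases, and it ranked high by the number of intervals that name it, 10 in the PDGF-AA list, against 8 in the untreated list, all intronic. In the annotation used here, all 10 PDGF-AA intervals and 7 of 8 untreated intervals lay over the coding sequence of Cep295nl, a gene on the same strand inside an intron of Timp2. They spanned 1312 nt in the PDGF-AA list, against 1083 nt in the untreated list. The peak caller's own name gave Cep295nl for 4 of the PDGF-AA intervals and 1 of the untreated intervals, each nested in an interval named for Timp2. Merged where they overlapped, the intervals over Cep295nl formed 6 sites in each list. Reads from the Timp2 intron and from Cep295nl cannot be told apart in these lists, so the Timp2 values are uncertain, and by the caller's name the Timp2 difference turned to -1. Timp3 had 1 peak per list, in a non-coding exon with PDGF-AA and in an intron without ligand.

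The next comparison asked where in the transcript the peaks lay. Coding sequence held 113 of 144 PDGF-AA peaks (78.5%, 71.1 to 84.4) and 76 of 127 untreated peaks (59.8%, 51.1 to 68.0), against 81.6% and 54.4% of all placed peaks in the PDGF-AA and untreated lists. Introns held 25 PDGF-AA peaks (17.4%, 12 to 24.4) and 47 untreated peaks (37.0%, 29.1 to 45.7), against 11.9% and 36.1% of all placed peaks. The CDS share of the matrix genes was 18.6 percentage points higher in the PDGF-AA list (7.64 to 29.2), and that of all peaks was 27.2 points higher. Without the peaks that hold a CA run, the difference in the matrix genes was 6.50 points. Without the peaks over exons of another gene, 10 of the 11 such PDGF-AA peaks being those of Timp2, the PDGF-AA share in introns was 10.5%. Fibrillar collagen peaks were coding in 95.2% of 42 PDGF-AA peaks and 86.7% of 60 untreated peaks. Peaks of Ltbp and Fbn genes, which encode microfibril proteins, were coding in 82.9% of 35 PDGF-AA peaks and 45.5% of 22 untreated peaks.

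**Figure D3:**
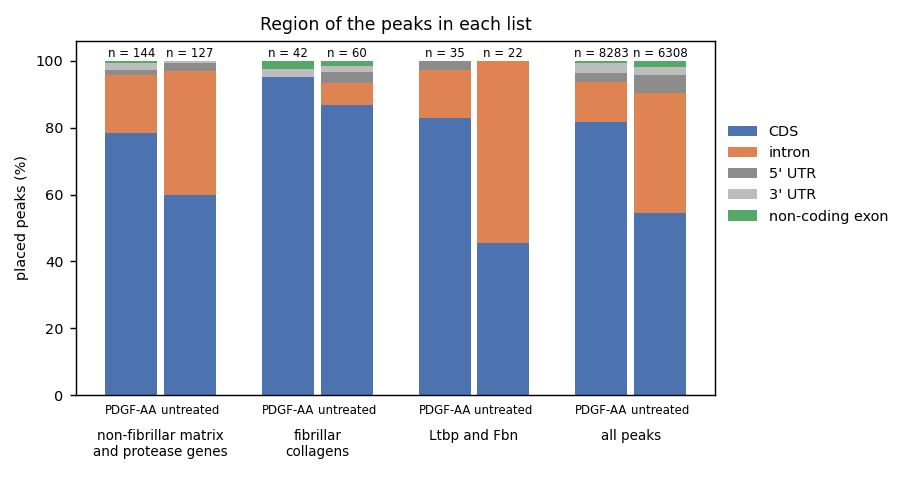
Share of placed peaks (y axis, percent) in CDS, introns, UTRs and non-coding exons for the matrix and protease genes, the fibrillar collagens, the Ltbp and Fbn genes and all peaks, with PDGF-AA left of untreated in each pair and the number of peaks above each bar. The matrix and protease genes had 78.5% coding peaks in the PDGF-AA list, against 59.8% in the untreated list, close to the pair of bars for all peaks.

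Overlap between the lists was counted at 1 nt or more on the same strand. It took in 56 of 144 PDGF-AA peaks (38.9%, 31.3 to 47.0) and 53 of 127 untreated peaks (41.7%, 33.5 to 50.4), against 29.6% and 38.8% of all peaks in the PDGF-AA and untreated lists. Without the peaks over exons of another gene the shares were 35.3% and 39.2%. Of coding peaks, 42 of 113 with PDGF-AA (37.2%) and 42 of 76 without ligand (55.3%) overlapped, against 29.3% and 57.5% of all coding peaks. Of intronic peaks, 14 of 25 with PDGF-AA and 11 of 47 without ligand did (56% and 23.4%, against 33.9% and 14.6% of all intronic peaks), and the Timp2 intervals over Cep295nl make up 9 and 6 of these. A peak was found in 45 coding exons of 20 genes in both lists, in 63 exons in the PDGF-AA list alone and in 30 exons in the untreated list alone. In 42 of the 45 exons bound in both, the peaks overlapped. Exons were not counted in this way over all bound genes, so these exon counts have no background. Over all genes the PDGF-AA list held 6760 coding peaks and the untreated list 3430.

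A tandem CA run, a perfect CA repeat of at least 12 nt, was in 2 of 144 PDGF-AA peaks (1.39%, 0.382 to 4.92) and 23 of 127 untreated peaks (18.1%, 12.4 to 25.7). Over all peaks these shares were 1.18% and 16.9%, so the matrix genes were near the background in both lists. All 25 of these peaks were intronic. They fell in 2 genes with PDGF-AA and 13 without ligand, and made up 23 of the 47 untreated intronic peaks. Both PDGF-AA runs, 43 nt in Col4a2 and 29 nt in Col8a1, lay in peaks that overlapped an untreated peak. The longest untreated runs were 51 nt in Loxl3, 48 nt in Adamtsl3 and in Thbs1, and 43 nt in Col4a1 and in Col4a2. Runs of 41 and 43 nt in Col4a1, and of 40 and 36 nt in Col4a5, lay in untreated peaks with no PDGF-AA counterpart.

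**Figure D4:**
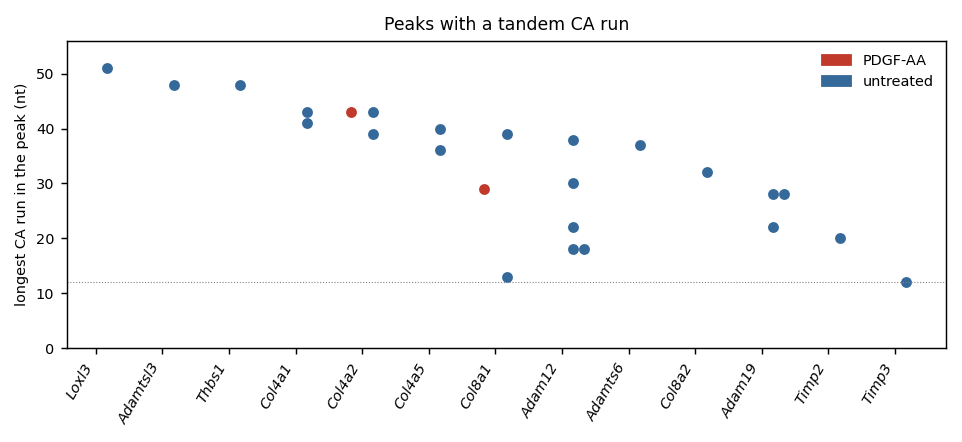
Length of the longest perfect CA run (y axis, nt) in each peak with a run of at least 12 nt (dotted line), by gene (x axis), for the PDGF-AA list (red, left) and the untreated list (blue, right); each point is 1 peak and equal values are set side by side. The PDGF-AA list had 2 points, in Col4a2 and Col8a1, and the untreated list had 23 in 13 genes.

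Among the hexamers that the study names for these libraries, the GA-rich ones were less dense in the matrix genes than over all peaks. The study chose them on the same libraries, so their density is no independent evidence. AGAAGA occurred 4.93 times per kb (3.49 to 6.76) in PDGF-AA peaks and 4.04 times per kb (2.64 to 5.91) in untreated peaks, against 8.84 and 6.06 over all peaks. Without 1 intronic peak of each list these densities were 2.77 and 1.90 per kb. GAAGAA occurred 2.33 and 1.86 times per kb in PDGF-AA and untreated peaks, against 7.85 and 5.50 over all peaks. AAGAAG occurred 2.07 and 1.09 times per kb, against 7.95 and 5.58. For GAAGAA and AAGAAG in both lists, the intervals of the matrix genes lay below those of all peaks. Fibrillar collagen peaks held 13.3 copies of GAAGAA per kb in the PDGF-AA list, against 7.24 in the untreated list. Overlapping copies in a repeat are not independent, so the intervals are too narrow. GAAGCG was counted 3 times in PDGF-AA peaks and 1 time in untreated peaks. CACACA, which follows the CA runs, was at 5.96 copies per kb in PDGF-AA peaks and 63.5 in untreated peaks, against 4.68 and 64.9 over all peaks.

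Collagen coding peaks were then read in frame. Of those in the collagen genes described here, 24 of 48 in the PDGF-AA list (50.0%, 36.4 to 63.6) and 24 of 36 in the untreated list (66.7%, 50.3 to 79.8) encoded at least 3 Gly-X-Y triplets in a row. For the fibrillar collagens these were 22 of 40 PDGF-AA peaks (55%) and 38 of 52 untreated peaks (73.1%). In both lists 16 of the 24 Gly-X-Y peaks of the genes described here overlapped a peak of the other list. Among their other collagen coding peaks 7 of 24 PDGF-AA and 7 of 12 untreated peaks did, against 29.3% and 57.5% of all coding peaks. In the fibrillar collagens, 16 of 22 PDGF-AA and 17 of 38 untreated Gly-X-Y peaks overlapped, beside 8 of 18 and 7 of 14 other peaks. All Col4a1 coding peaks encoded the repeat (5 and 4 in the PDGF-AA and untreated lists), in a protein with 78.9% of its residues in it. Of Col4a2 coding peaks, 2 of 5 with PDGF-AA and 1 of 2 without ligand did, at 74.9% of the residues. Of Col6a2 coding peaks, 6 of 8 with PDGF-AA and 6 of 6 without ligand did, in a protein with 31.9% of its residues in the repeat. Of Col12a1 coding peaks, 1 of 9 with PDGF-AA and 4 of 9 without ligand did, at 7.98% of the residues. None of the 3 coding peaks of Col16a1 in either list did, at 63.5% of the residues. The median GC content of the Gly-X-Y peaks was 64.2% in the PDGF-AA list, against 62.4% in the untreated list. With peaks of at least 40 nt alone, 13 PDGF-AA and 16 untreated peaks encoded the repeat.

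Peaks often ended where exons ended. Of coding peaks in internal exons, 60 of 108 in the PDGF-AA list (55.6%, 46.2 to 64.6) and 46 of 72 in the untreated list (63.9%, 52.4 to 74.0) had an edge within 1 nt of an exon end, against 35.5% and 38.7% over all such peaks. Both edges were at exon ends in 6 PDGF-AA peaks (5.56%, 2.57 to 11.6) and 10 untreated peaks (13.9%, 7.72 to 23.7), against 1.71% and 2.35%. All of these whole-exon peaks were in collagens except that of Thbs3 exon 16 in the untreated list, and 4 exons, the ones printed above, were covered whole in both lists. Fibrillar collagens had an edge at an exon end in 62.5% of 40 PDGF-AA peaks and 72.5% of 51 untreated peaks. Both edges were at exon ends in 7.5% and 15.7% of these fibrillar collagen peaks, so whole-exon peaks were not particular to the matrix genes. Peaks of Ltbp and Fbn genes had an edge at an exon end in 64% of 25 PDGF-AA peaks and 75% of 8 untreated peaks. Median length of the bound exons was 139.5 nt for PDGF-AA peaks and 109.5 nt for untreated peaks of the matrix genes, beside 156 nt and 141 nt over all peaks. A peak reaching the end of an exon met a peak at the start of the next exon at 19 junctions of 10 genes in the PDGF-AA list, against 15 junctions of 8 genes among untreated peaks. This was 47.5% and 40.5% of the exon 3′ ends that a peak reached, against 43.0% and 26.4% over all peaks. Of these junctions 7 were the same in both lists. Among peaks of at least 40 nt, which leaves out those on the shortest exons, an edge at an exon end was found for 38 PDGF-AA and 26 untreated peaks. The share over all peaks was not taken at this width, so these counts cannot be set against the background.

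**Figure D5:**
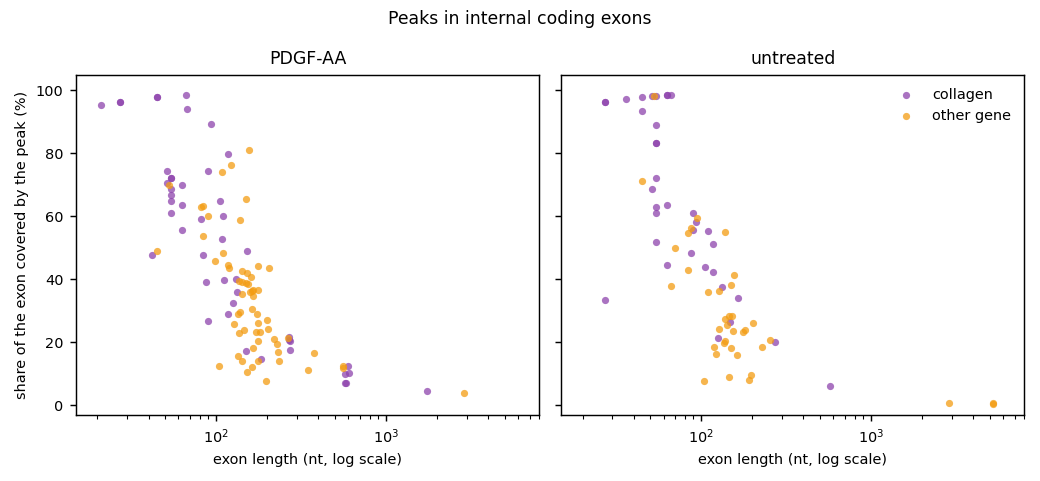
Share of the exon covered by the peak (y axis, percent) against exon length (x axis, nt, log scale) for coding peaks in internal exons, with the PDGF-AA list left and the untreated list right, collagens in purple and other genes in orange; each point is 1 peak. Covered shares near 100% were found in exons of up to 66 nt, nearly all of collagens.

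Other genes of the matrix and its processing were taken from a list of 90, of which 42 had a peak. Of these, 19 had more peaks with PDGF-AA (45.2%), 9 had fewer (21.4%) and 14 had equal numbers, against 50.6% with more and 26.7% with fewer over all bound genes. Together they had 63 PDGF-AA peaks, 51 of them coding (81.0%), and 51 untreated peaks, 21 of them coding (41.2%), against 81.6% and 54.4% of all placed peaks. Several of them encode enzymes that hydroxylate procollagen. P3h1, a prolyl 3-hydroxylase, had 3 PDGF-AA peaks and no untreated peak, P4ha3 and P4hb, of prolyl 4-hydroxylase, had 2 PDGF-AA peaks each and no untreated peak, and the lysyl hydroxylases Plod2 and Plod3 had 1 each and no untreated peak. P4ha1 also had 1 PDGF-AA peak and no untreated peak. P3h3 differed, with 1 PDGF-AA and 3 untreated peaks, and Plod1, P4ha2 and P3h2, also on the list, had no peak. Only 50.4% of all bound genes had peaks in both lists, so peaks in a single list were common. The procollagen chaperone Serpinh1 had 1 peak in each list. Tgfbi had 5 PDGF-AA peaks and 1 untreated peak, and the glypican gene Gpc6 had 3 and 8, all intronic.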

How the data were processed

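According to the study's methods, the authors trimmed reads with cutadapt 1.18, collapsed them on molecular identifiers, removed reads of repetitive elements, aligned the rest to GRCm39 with STAR, ran omniCLIP once per condition to call peaks, and used RCAS for annotation. The submitters' notes list GRCm38 as well. The deposited lists hold intervals and gene names without scores or counts, so depth per peak is unknown. The methods describe eCLIP in biological duplicate, whereas their table of reads lists 1 PDGF-AA library. Replicates cannot be compared because each list is a single set of calls. The background library of the peak calls is not given in the sources used here. Input and IgG libraries were not analysed here, nor were the lists restricted to genes of 1 condition.

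Distinct intervals were counted once, with the first matching gene. Regions, exons and reading frames came from GENCODE M39 (region of most nucleotides over all transcripts, in the order CDS, UTRs, non-coding exon, intron; exons from the longest-CDS transcript of each gene). Counts were made in Python 3.11.15 with pysam 0.24.0, after a check on simulated peaks. Genes, lists, roles, hexamers and the 12-nt CA rule were chosen with earlier results of these data known. Genes described in full were the 25 with most peaks, the 5 with the largest difference in each direction, those of the widest peaks, those with a CA run in the PDGF-AA list and the 5 with the longest untreated runs; others were named for their place in a group, some after their values were seen. Alternatives changed gene assignment, peak width, merging, overlap, position, region order and CA rule. A sequence that met the rule for those shown is not reported here.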

Additional observations from a re-analysis of the deposited data

How the results depend on the processing

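No paired analysis was possible because peaks were called once per condition and the lists carry no replicate, and for the same reason no library could be left out. Of 156 values for the main comparisons under alternatives, 136 stayed within counting error or 1.5 times the main value, and 20 moved further. Only the differences in CDS and intron share could change sign, since counts, percentages and densities cannot be negative, and these differences did not. Taking the first gene listed changed no value. With peaks of at least 40 nt, the untreated list held 84 peaks, overlap took in 29.1% of PDGF-AA and 33.3% of untreated peaks, 13 PDGF-AA collagen peaks encoded Gly-X-Y repeats, and 38 PDGF-AA and 26 untreated peaks had an edge at an exon end. The difference was then 1 peak for Loxl1 and -2 for Col6a1, both opposite in sign to the main values. The Timp2 difference turned to -1 by the caller's gene name, -2 with intervals merged within 50 nt, and -1 with overlapping intervals merged or without peaks over exons of another gene, the last 2 settings being chosen after seeing the data. Without peaks over exons of another gene, the PDGF-AA list had 85.0% of peaks in CDS and 10.5% in introns. Without CA-run peaks, 73.1% of untreated peaks were coding and 23.1% intronic, the PDGF-AA minus untreated differences were 6.50 points for CDS and -6.88 for introns, and CACACA was at 0.398 copies per kb in PDGF-AA and 1.66 in untreated peaks. Giving any UTR overlap precedence over CDS left 53.5% of PDGF-AA and 37.0% of untreated peaks coding. In CDS peaks alone, AGAAGA was at 2.48 copies per kb in PDGF-AA and 1.82 in untreated peaks, and CACACA at 0 in both, which allows up to 0.531 and 0.912 copies per kb.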
